A study of Mus musculus with 10 samples.

Results

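The genes described here are Ifng, which encodes the cytokine interferon-γ (IFN-γ), Ifngr1 and Ifngr2 for the chains of its receptor, the chemokine genes Cxcl9, Cxcl10 and Cxcl11, and Cxcr3 for the receptor of these chemokines. They were taken by gene symbol from a table of read counts in mouse colon, and they are 7 of its 56691 genes. Each symbol matched 1 row, and all 7 genes were among the 16545 with enough counts to be tested.

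Colon RNA of 10 male C57/BL6 mice, 8 weeks old at the start, was sequenced after colitis had been induced with dextran sulfate sodium (DSS), which damages the colon lining. All 10 mice drank 3% DSS for 7 days, and 5 of them (the ceAF group, ceAF-1 to ceAF-5) were then given chick early amniotic fluid by gavage at 15 mL/kg for 10 days. The other 5 (the DSS group, DSS-1 to DSS-5) had DSS alone, and what they were given during the days of ceAF is not stated in the sources used here. Untreated mice were not analysed here, so each value compares ceAF with DSS alone. The total count per mouse was 16275884 to 19901549 in the DSS group and 14676471 to 18811795 in the ceAF group. Markers of colon epithelium were present in every library, with a summed level over 9 genes of 14619.6 to 27233.5 CPM, which are counts scaled to the size of the library.

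IFN-γ is made mainly by activated T cells, natural killer (NK) cells and innate lymphoid cells, and its receptor signals through Janus kinases. Among the genes that it switches on in macrophages, epithelium and other cells are those of the chemokines CXCL9, CXCL10 and CXCL11, which bind CXCR3 and draw T and NK cells that carry this receptor into inflamed tissue. In the colon these cells make IFN-γ in turn, so that ligand, receptor and chemokines form a loop.

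Ifng had a lower mean level in the ceAF group, and so had Cxcr3, whereas Cxcl9, Cxcl10 and Cxcl11 spread widely in both groups and the receptor chains were nearly level. By edgeR's quasi-likelihood test, with p-values adjusted by Benjamini and Hochberg's method, 0 of the 7 genes had an adjusted p-value under 0.05, as did 0 of all genes tested (0%). DESeq2 put 30 of all genes under that limit and voom with quality weights 0, and neither put any of the 7 there. At an unadjusted p-value under 0.05, Ifng and Cxcr3 were lower in the ceAF group, which is 2 of 7, beside 3.67% of all genes tested (607 genes). None of the 7 was higher at that limit, beside 3.26% of all genes (539 genes). The groups did not fully separate in any of the 7, where 77 of all genes (0.465%) had every ceAF mouse below every DSS mouse.

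**Figure D1:**
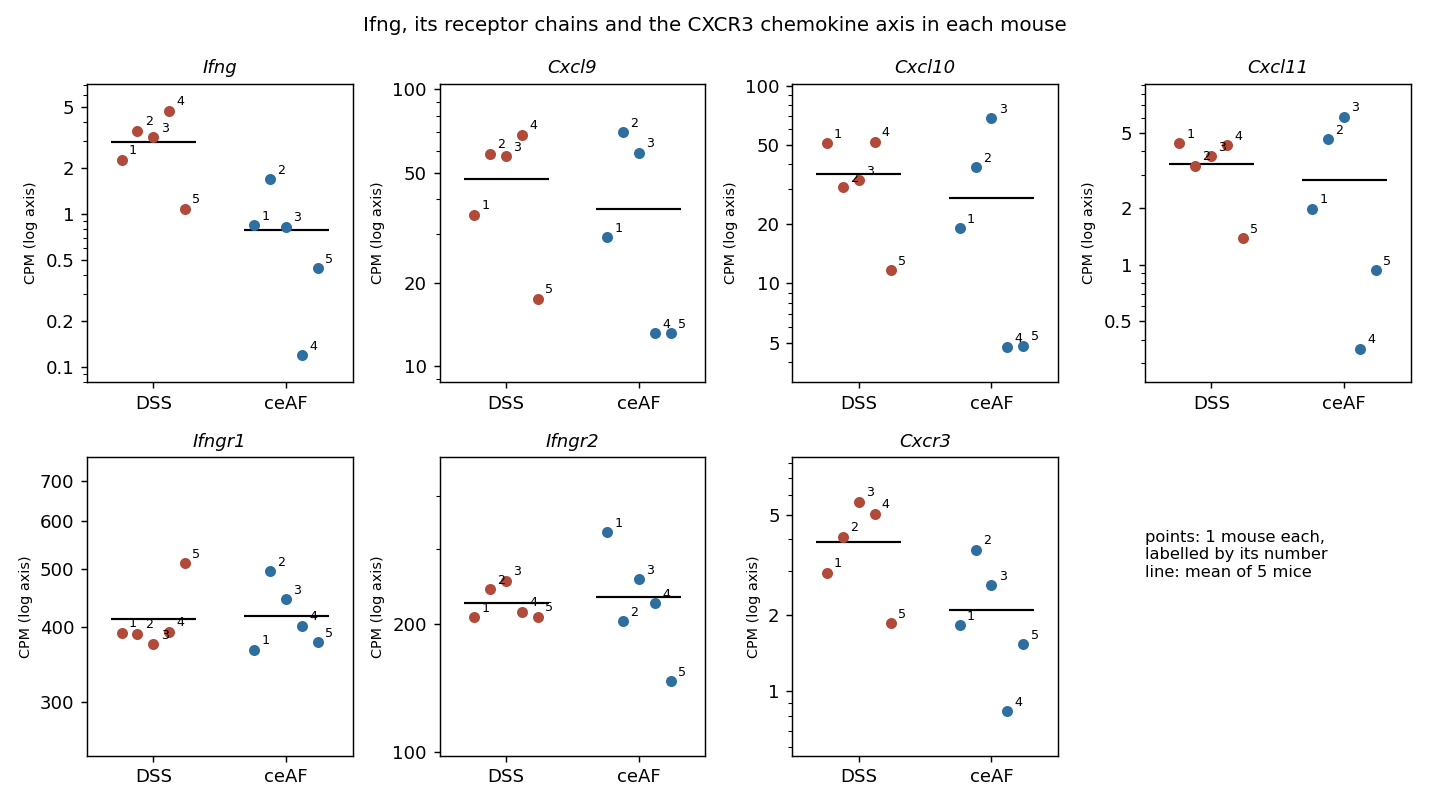
Level of each of the 7 genes in each mouse, in CPM on a log axis whose range differs between panels, with DSS and ceAF mice side by side, 1 point per mouse labelled by its number and a line at the mean of 5 mice. Ifng lay between 1.08 and 4.74 CPM in the DSS mice and between 0.119 and 1.69 in the ceAF mice, while the levels of Cxcl9, Cxcl10 and Cxcl11 overlapped widely.

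Ifng (ENSMUSG00000055170) lies on the forward strand of chromosome 10, from 118276951 to 118281797 in the positions of the deposited table, whose genome build is not named. In the DSS mice its level was 2.26, 3.50, 3.17, 4.74 and 1.08 CPM from DSS-1 to DSS-5, where libraries were scaled by TMM, the trimmed mean of M-values. In the ceAF mice it was 0.839, 1.69, 0.823, 0.119 and 0.440 CPM from ceAF-1 to ceAF-5. All 5 ceAF mice were thus below DSS-1 to DSS-4, and the groups overlapped because DSS-5 was below ceAF-2. Means (± SD, n = 5 mice per group) were 2.95 ± 1.37 CPM with DSS alone and 0.783 ± 0.589 CPM with ceAF. Its log2 fold change was −1.92 (standard error 0.555), with a 95% interval of −3.14 to −0.70 and adjusted p = 0.656 (edgeR), which was also the smallest value of all genes. Its unadjusted p-value was 0.00538 in the same test, rank 111 of all genes. The difference of mean log2 CPM was −2.04, with p = 0.0159 in an exact two-sided permutation test over 252 assignments of 5 mice against 5, whose smallest possible value is 0.00794.

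These levels rest on few reads. Ifng had 39, 70, 53, 74 and 18 counts in the DSS mice and 11, 26, 15, 2 and 8 in the ceAF mice. For ceAF-4, the lowest mouse, the exact 95% Poisson interval of the 2 counts was 0.242 to 7.23, and for DSS-5 that of 18 counts was 10.7 to 28.4, both for counting error alone. The count of DSS-4, the highest mouse, had an interval of 58.1 to 92.9, above the interval of each ceAF mouse. In 10 fits that each left out a mouse, the log2 fold change of Ifng lay between −2.39, without ceAF-2, and −1.63, without ceAF-4. It was −1.02 when fitted on log2 FPKM plus 1 and −1.92 on log2 FPKM plus 0.1, since a larger offset shrinks differences between low values. Colon tissue is a mixture of cells, and in such bulk samples fewer cells that make an RNA and less of that RNA per cell cannot be told apart.

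The genes of the CXCR3 ligands lie side by side on the reverse strand of chromosome 5, Cxcl9 (ENSMUSG00000029417) from 92469206 to 92475938, Cxcl10 (ENSMUSG00000034855) from 92494497 to 92496748 and Cxcl11 (ENSMUSG00000060183) from 92507403 to 92513344. Cxcl11 is classed as a polymorphic pseudogene in the GENCODE M21 annotation of GRCm38, while the other 6 genes are classed as protein coding. Whether Cxcl11 RNA yields a working chemokine in these mice was not tested. Art3, on the opposite strand, overlaps Cxcl10 and Cxcl11. It had 1027 counts over the 10 mice, against 5314 for Cxcl10 and 527 for Cxcl11. Gm2673, on the same strand as Art3, also overlaps Cxcl11 and had 1 count. No strand marking is stated for these libraries, so reads of genes that overlap on opposite strands cannot be told apart. Gm49751, named for its position too, overlaps Ifng on the same strand, where strand marking would not tell them apart. It had 22 counts over the 10 mice, 7 of them in DSS-4, against 316 for Ifng. Art3 is named for its position alone, and its counts were 78 to 139 in the DSS mice and 71 to 133 in the ceAF mice, without the low values that Cxcl10 had.

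Cxcl9 was at 35.2, 58.5, 57.2, 68.6 and 17.5 CPM in DSS-1 to DSS-5 and at 29.2, 69.9, 58.9, 13.1 and 13.1 CPM in ceAF-1 to ceAF-5. Cxcl10 was at 51.1, 30.7, 33.4, 52.1 and 11.6 CPM in the DSS mice and at 19.0, 38.6, 68.2, 4.77 and 4.84 CPM in the ceAF mice. Cxcl11 was at 4.40, 3.35, 3.77, 4.29 and 1.38 CPM in the DSS mice and at 1.98, 4.62, 6.09, 0.358 and 0.935 CPM in the ceAF mice. In all 3 genes the lowest mice were ceAF-4, ceAF-5 and DSS-5, in that order, followed by ceAF-1. ceAF-2 or ceAF-3 was the highest mouse of all in each of the 3, so the ceAF mice stood at both ends of the range and the groups overlapped. The highest ceAF mouse had 5.33 times the Cxcl9, 14.3 times the Cxcl10 and 17.0 times the Cxcl11 of the lowest, against 3.93, 4.47 and 3.19 times within the DSS group.

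Cxcl9 averaged 47.4 ± 20.7 CPM with DSS alone and 36.8 ± 26.3 CPM with ceAF (± SD, n = 5 mice per group). For Cxcl10 these means were 35.8 ± 16.7 and 27.1 ± 26.8, and for Cxcl11 they were 3.44 ± 1.23 and 2.80 ± 2.46. The differences between the groups were smaller than the SD within them. The log2 fold change was −0.36 for Cxcl9 (95% interval −1.49 to 0.76), −0.40 for Cxcl10 (−1.91 to 1.11) and −0.30 for Cxcl11 (−1.66 to 1.07). Their adjusted p-values were 0.928, 0.946 and 0.959 in edgeR's test, where the fit is on counts. The differences of mean log2 CPM, which give low mice more weight, were −0.55, −0.95 and −0.78, with exact two-sided permutation p-values of 0.373, 0.286 and 0.365. All 3 intervals include 0 and reach well to either side of it. The size depended on single mice. Without ceAF-4 the log2 fold change was −0.14 for Cxcl9, −0.12 for Cxcl10 and 0.00 for Cxcl11, and at the other end it was −0.71 for Cxcl9 without ceAF-2, and −1.09 for Cxcl10 and −0.80 for Cxcl11 without ceAF-3.

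The chemokine level per Ifng level was set beside these values after they had been seen, as a description without a test, with counts divided by exonic length. In DSS-1 to DSS-5 Cxcl9 was at 6.68, 7.18, 7.74, 6.21 and 6.94 times the level of Ifng. In ceAF-1 to ceAF-5 it was at 14.9, 17.7, 30.7, 47.2 and 12.8 times. DSS-5 had the least Ifng and the least Cxcl9 of its group and nearly the same ratio as the other DSS mice, and each ceAF mouse had a higher ratio than each DSS mouse. For Cxcl10 the ratio was 13.0, 5.05, 6.04, 6.32 and 6.198 in the DSS mice and 13.0, 13.1, 47.6, 23.0 and 6.33 in the ceAF mice, and here the groups overlapped. The ratios of ceAF-1 to ceAF-5 rest on 11, 26, 15, 2 and 8 counts of Ifng. Ifng, the divisor, was itself lower with ceAF, so a gene that changed less has a higher ratio with ceAF by calculation. How many other genes separate the groups in this way was not counted.

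Ifngr1 (ENSMUSG00000020009, chromosome 10, 19467697 to 19485977, forward strand) encodes the chain that binds IFN-γ. Its level was 391.6, 390.2, 375.0, 393.0 and 510.7 CPM in DSS-1 to DSS-5 and 366.9, 495.1, 444.9, 402.3 and 378.0 CPM in ceAF-1 to ceAF-5. DSS-5, the DSS mouse with the least Ifng, had the most Ifngr1, and the groups overlapped over nearly their whole range. The log2 fold change was 0.02 with a 95% interval of −0.26 to 0.29 and adjusted p = 0.987 (edgeR).

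Ifngr2 (ENSMUSG00000022965, chromosome 16, 91343960 to 91362511, forward strand) encodes the chain that the receptor needs to signal. It was at 207.8, 241.4, 252.9, 214.2 and 208.1 CPM in the DSS mice and at 329.5, 203.5, 255.0, 224.3 and 147.0 CPM in the ceAF mice. The ceAF mice again lay at both ends, with ceAF-1 highest and ceAF-5 lowest, and the SD was 67.3 CPM in the ceAF group against 20.9 in the DSS group. The log2 fold change was 0.04, with a 95% interval of −0.36 to 0.45 and adjusted p = 0.981 (edgeR), and it was −0.12 without ceAF-1. Exact two-sided permutation tests gave p = 0.889 for Ifngr1 and 1.00 for Ifngr2. Neither interval reached the value fitted for Ifng.

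Cxcr3 (ENSMUSG00000050232, chromosome X, 100775141 to 100777875, reverse strand) encodes the receptor of the 3 chemokines. It was at 2.96, 4.10, 5.63, 5.06 and 1.86 CPM in DSS-1 to DSS-5 and at 1.83, 3.64, 2.63, 0.835 and 1.54 CPM in ceAF-1 to ceAF-5. Every ceAF mouse lay below the DSS median, 3 of the 5 lay below DSS-5, and ceAF-2 lay above DSS-1 and DSS-5. Means (± SD, n = 5 mice per group) were 3.92 ± 1.53 CPM with DSS alone and 2.10 ± 1.08 CPM with ceAF. Its log2 fold change was −0.90 (standard error 0.404), with a 95% interval of −1.79 to −0.01 and adjusted p = 0.717 (edgeR). Its unadjusted p-value of 0.0474 in that test was near the limit, and it was above 0.05 in 7 of the 10 fits that left out a mouse, at up to 0.118 without DSS-3. The exact two-sided permutation p-value was 0.0714, and 0.0317 without DSS-5 or without ceAF-2.

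**Figure D2:**
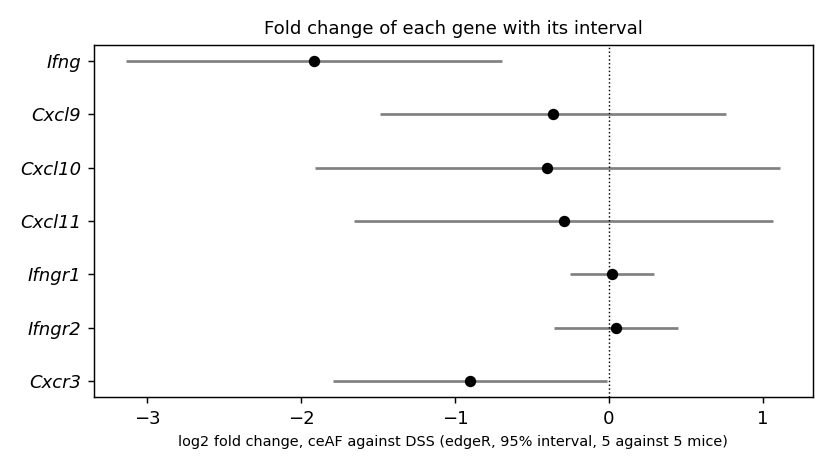
Log2 fold change of each of the 7 genes, ceAF against DSS (x axis), as points with 95% intervals from edgeR over 5 against 5 mice. The interval of Ifng runs from −3.14 to −0.70 and that of Cxcr3 from −1.79 to −0.01, while the other 5 include 0.

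Levels of different genes were compared in the FPKM values, which divide the count by exonic length and library size. The mean FPKM in the DSS group was 145.8 for Ifngr1 and 60.2 for Ifngr2, then 15.9 for Cxcl10, 15.7 for Cxcl9, 2.27 for Ifng, 2.27 for Cxcr3 and 0.914 for Cxcl11. In the ceAF group it was 145.4, 60.1, 11.7, 11.9, 0.590, 1.19 and 0.718 in the same order of genes. Ifngr1 was first and Ifngr2 second in each of the 10 mice, and the lowest Ifngr1 value, 115.1, was above the highest Ifngr2 value, 78.1. Cxcl9 and Cxcl10 followed in each mouse without a fixed order between them, and the last 3 places were shared by Ifng, Cxcr3 and Cxcl11. Ifng was above Cxcr3 in DSS-1, DSS-2 and DSS-4 and below it in each ceAF mouse, and the ratio of Ifng to Cxcr3 had a median of 1.02 with DSS alone and 0.418 with ceAF. Ifng was the lowest of the 7 in ceAF-3 and tied with Cxcl11 for the lowest in ceAF-4, both at an FPKM of 0.1, from 2 and 6 counts.

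Correlations of log2 CPM over the 10 mice are given as a description without a test. Pearson's r between Ifng and Cxcr3 was 0.95 (Spearman's rho 0.92), 0.95 after the mean of each group was subtracted, and 0.89 without the 2 mice farthest from the median of Ifng. Between Cxcl10 and Cxcl11 r was 0.96 (rho 0.95), and between Cxcl9 and Cxcl10 it was 0.91 (rho 0.84). Between Ifng and Cxcl9 r was 0.80 (rho 0.65) over all mice, 0.90 within groups and 0.67 without the 2 farthest mice. With Ifng, r was 0.76 for Cxcl10 (rho 0.54) and 0.80 for Cxcl11 (rho 0.44) over all mice, 0.79 and 0.87 within groups, and 0.57 for each without the 2 farthest mice. Cxcr3 correlated with the chemokines too, at r 0.89 with Cxcl9 (rho 0.77), 0.80 with Cxcl10 (rho 0.66) and 0.86 with Cxcl11 (rho 0.61). Ifngr1 followed none of the other 6 genes, with r between −0.19 and 0.11.

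Among the 15224 tested genes with a symbol and a mean of at least 1 CPM, those most like Ifng over the 10 mice were Il21 (r 0.99), which encodes a cytokine of helper T cells, Nkg7 (0.98), a gene of cytotoxic granules, Trbc2 (0.97) for a T cell receptor chain, Ubash3a (0.96) and Ms4a4b (0.96). Without the 2 mice farthest from the median of Ifng r was between 0.92 and 0.97 for these 5, and within groups it was 0.92 to 0.98. Il21 was at 1.68, 1.999, 2.33, 3.07 and 0.540 CPM in the DSS mice and at 0.305, 0.911, 0.548, 0.00 and 0.220 CPM in the ceAF mice, where DSS-1 to DSS-4 and ceAF-2 were the 5 highest mice and ceAF-4 and ceAF-5 the lowest, as for Ifng. Cxcr3 was most like Il21 (0.96), Ms4a4b (0.96), Tbx21 (0.95), Nkg7 (0.94) and Cd247 (0.94), of which Tbx21 encodes T-bet, the transcription factor of IFN-γ producing T cells.

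For Cxcl9 the most alike were Gbp2 (r 0.97), Ido1 (0.97) and Gbp4 (0.96), which are known targets of IFN-γ, then Tmem229b (0.94) and Ppp1r15b (0.94). For Cxcl10 they were Cnp (0.97), Gbp5 (0.96), Exoc7 (0.96), Ifi211 (0.95) and Ly6e (0.95). Without the 2 mice farthest from the median of the chemokine, r was 0.86 to 0.96 for the genes of Cxcl9 and 0.84 to 0.91 for those of Cxcl10. Gbp2 was at 119.2, 222.7, 292.6, 302.2 and 87.0 CPM in the DSS mice and at 139.6, 278.0, 299.3, 45.7 and 66.0 CPM in the ceAF mice. ceAF-4, ceAF-5 and DSS-5 were its lowest mice, as in Cxcl9, and DSS-4 was its highest. No gene was among the 5 most alike of both Ifng and Cxcl9 or Cxcl10.

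Of all 16545 genes tested, 8034 were lower and 8511 higher with ceAF, and 3.67% were lower at an unadjusted p-value under 0.05. These shares stand beside the counts of each list below. Of 31 other genes that IFN-γ is known to induce, all were tested. With ceAF 19 had a lower and 12 a higher level than with DSS alone, and 0 were under an unadjusted p-value of 0.05 in either direction. Their median log2 fold change was −0.18, against 0.01 over all genes tested, and it was 0.05 without ceAF-4, −0.03 without ceAF-5 and −0.31 without ceAF-3, so its direction depended on 1 mouse. The summed level was 3828.7, 5370.9, 5338.0, 5686.9 and 2018.5 CPM in DSS-1 to DSS-5 and 4526.7, 4922.3, 6058.4, 1569.2 and 2641.4 CPM in ceAF-1 to ceAF-5. Without DSS-5, 5 of the 31 were lower at that limit. DSS-5, ceAF-4 and ceAF-5 were low, as in the chemokines, and ceAF-3 was highest, as in Cxcl10 and Cxcl11 but not in Cxcl9. ceAF-3 was the highest mouse in 12 of the 31 genes and ceAF-4 the lowest in 16. The 4 with the smallest p-values were Icam1 (log2 fold change −0.58), Serpina3g (−0.69), Fcgr1 (−0.81) and H2-Aa (−0.67), with adjusted p-values between 0.739 and 0.803 in edgeR's test. The most abundant was Cd74 (mean FPKM 378.1), the invariant chain of class II molecules, with a log2 fold change of −0.65.

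After their values had been seen, 3 subsets of this list were set apart as a description. The 5 genes of antigen presentation on class II molecules (Ciita, H2-Aa, H2-Ab1, H2-Eb1 and Cd74) had a median log2 fold change of −0.58, and in each of them all 5 ceAF mice lay below the DSS median, but DSS-5 was the lowest of the 10 mice. They summed to 1418.6, 2179.5, 1831.4, 1918.1 and 321.2 CPM in the DSS mice and to 875.8, 1243.1, 961.2, 420.8 and 1468.7 CPM in the ceAF mice, so the groups overlapped. The 12 genes of the guanylate-binding and immunity-related GTPases had a median of 0.31, with 9 of the 12 higher in the ceAF group. Their sum was 854.3, 1461.3, 1730.6, 1912.9 and 511.3 CPM in the DSS mice and 1983.0, 1844.4, 2925.6, 363.1 and 404.4 CPM in the ceAF mice. In the GTPases ceAF-1, ceAF-2 and ceAF-3 were thus above at least 4 of the 5 DSS mice, and ceAF-4 and ceAF-5 were below all of them. The 7 genes of class I antigen processing had a median of −0.09.

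**Figure D3:**
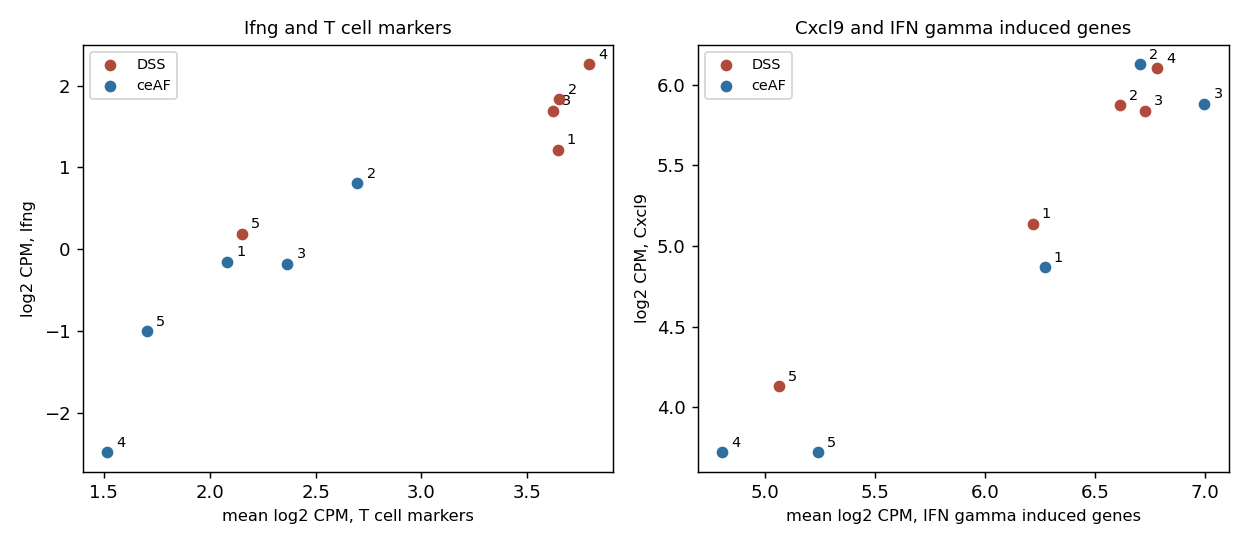
Log2 CPM of Ifng against the mean log2 CPM of 14 T cell markers (left) and of Cxcl9 against that of 31 genes induced by IFN-γ (right), 1 point per mouse labelled by its number and coloured by group. On the left DSS-5 lies among the ceAF mice, and on the right DSS-5, ceAF-4 and ceAF-5 lie apart at the low end.

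For the signal chain of the receptor 12 genes of cytokine signaling were taken, not all of them particular to IFN-γ. With ceAF 7 of them were lower and 5 higher. The higher ones were Usp18 (log2 fold change 0.83), Stat2 (0.38), Irf9 (0.14), Pias1 (0.04) and Jak2 (0.02). The median log2 fold change of the 12 was −0.10, or −0.03 without ceAF-4 or without ceAF-5. Without ceAF-1, 2 of the 12 were under an unadjusted p-value of 0.05. Without DSS-1 and DSS-5, 0 of the 12 were. Socs3, a feedback inhibitor of cytokine signaling, was the only gene of the list under that limit with all mice, at a log2 fold change of −1.54 (standard error 0.475) and adjusted p = 0.656 (edgeR). It was at 150.6, 39.6, 42.7, 48.1 and 194.3 CPM in the DSS mice and at 28.5, 35.6, 23.6, 51.2 and 24.8 CPM in the ceAF mice. The high values of Socs3 came from DSS-1 and DSS-5, and DSS-5 was low in Ifng, so its order over the mice was not that of Ifng. The next genes by p-value were Socs1 (−0.77), another feedback inhibitor, Jak1 (−0.15) and Ptpn2 (−0.13), and the most abundant was Irf1 (−0.06, mean FPKM 72.9). The summed level of the 12 was 1221.4, 1278.7, 1265.4, 1447.3 and 1095.0 CPM in the DSS mice and 1532.1, 1353.8, 1746.3, 898.9 and 799.0 CPM in the ceAF mice. It was highest in ceAF-3 and lowest in ceAF-5, ceAF-4 and DSS-5, and the groups overlapped. Stat2 and Usp18 were also highest in ceAF-3, at 398.2 and 305.3 CPM.

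Of 18 genes that drive Ifng production, 14 had enough counts, and Il12a, Il12b, Il12rb2 and Il27 had not. Of the 14, 12 were lower in the ceAF group, and the median log2 fold change was −0.77. At an unadjusted p-value under 0.05, 8 were lower (57.1%, beside 3.67% of all genes tested). By adjusted p-value edgeR called 0 of them. The smallest p-values were those of Il21 (log2 fold change −2.26), Tbx21 (−1.50), Il18rap (−1.47), a chain of the receptor for IL-18, and Hlx (−0.73), a transcription factor that acts with T-bet. Tbx21 was at 1.74, 2.75, 2.69, 3.33 and 0.900 CPM in the DSS mice and at 0.610, 1.11, 1.32, 0.179 and 0.770 CPM in the ceAF mice. DSS-5 lay among the ceAF mice in Tbx21, and ceAF-4 was lowest, as in Ifng. The most abundant gene of the list, Il18 (mean FPKM 81.9), is expressed by epithelium and had a log2 fold change of −0.37. Its DSS mean of 94.0 CPM was set by DSS-5, at 189.1 against 55.5 to 85.2 in the other DSS mice. Its ceAF mean was 72.9 CPM. The summed level, highest in DSS-5 where Il18 was highest, was 198.3, 153.0, 171.9, 194.3 and 245.5 CPM in the DSS mice and 112.3, 155.7, 126.4, 167.5 and 160.6 CPM in the ceAF mice. Without DSS-1, 4 of the 14 were lower at an unadjusted p-value under 0.05 in place of 8.

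Of 13 other chemokines, receptors and enzymes that act beside CXCR3, 12 were lower in the ceAF group, 6 of them at an unadjusted p-value under 0.05, and the median log2 fold change was −0.85. Ccl5, a chemokine of T and NK cells and the most abundant gene of the list (mean FPKM 18.4), was at 29.0, 29.9, 29.8, 37.8 and 8.94 CPM in the DSS mice and at 9.69, 12.2, 6.97, 5.07 and 7.86 CPM in the ceAF mice. The value of DSS-5 was between those of ceAF mice. Ccl5 had a log2 fold change of −1.70 (standard error 0.351), and those of Ccl4, Cxcr6 and Ccl3 were −3.66, −1.40 and −4.19. Ccl3 and Ccl4 reached 54.4 and 42.8 CPM in DSS-1, which set the size of their means of 13.3 and 12.0 in the DSS group. The 13 genes summed to 286.3, 182.9, 168.8, 187.2 and 111.1 CPM in the DSS mice and to 76.8, 142.5, 139.5, 80.1 and 109.1 CPM in the ceAF mice.

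Markers of the cells that make Ifng and carry CXCR3 moved with these genes. Of 14 T cell markers 14 were lower in the ceAF group, all 14 at an unadjusted p-value under 0.05, and the median log2 fold change was −1.26. They summed to 190.8, 204.2, 198.0, 216.7 and 78.1 CPM in DSS-1 to DSS-5 and to 74.9, 98.8, 80.5, 43.7 and 55.2 CPM in ceAF-1 to ceAF-5. DSS-5 was between ceAF-3 and ceAF-1, and the order of mice was close to that of Ifng, with r 0.94 between Ifng and the mean of the markers (rho 0.95, n = 10 mice). It was 0.86 within groups and 0.95 without the 2 mice farthest from the median. The most abundant marker was Trbc2 (mean FPKM 16.7), the smallest p-values were those of Cd3g, Cd8b1, Lck and Cd8a, with log2 fold changes of −1.47, −2.08, −1.32 and −1.42, and none of the 14 was at 0 counts over the 10 mice. DESeq2 put 5 of these 14 genes and 3 of the 13 chemokine partners under an adjusted p-value of 0.05, where edgeR put 0. The T cell list was chosen with earlier results of these data known. It holds T cell receptor pathway genes that the paper reported as changed with ceAF. Its count, and levels taken relative to it, are therefore not independent of those results. T cell numbers were not measured, so their part in the level of Ifng and Cxcr3 was not tested. The next paragraph compares levels of RNA alone.

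Relative to the mean of the T cell markers, the log2 level of Ifng was −2.43, −1.82, −1.93, −1.53 and −1.97 in the DSS mice and −2.24, −1.89, −2.55, −3.998 and −2.71 in the ceAF mice. The groups overlapped, and the difference of −0.74 was smaller than the −2.04 of Ifng itself (exact two-sided permutation test, p = 0.0635). The mean of the markers itself differed by −1.30, and the list holds genes reported as changed in these data. The differences relative to it, and their p-values, depend on that choice of genes. For Cxcr3 the level relative to the markers was −2.05, −1.59, −1.11, −1.44 and −1.21 in the DSS mice and −1.16, −0.81, −0.94, −1.68 and −1.03 in the ceAF mice. The difference was 0.36, in the other direction than that of Cxcr3 itself, with p = 0.151 in an exact two-sided permutation test. Without ceAF-4, the mouse with 2 counts of Ifng, the difference for Ifng was −0.41 (exact permutation p = 0.119), and without ceAF-2 it was −0.94 (exact permutation p = 0.0238). For Cxcr3 it was 0.22 without DSS-1 (exact permutation p = 0.302) and 0.50 without ceAF-4 (exact permutation p = 0.0397).

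Of 9 markers of NK and cytotoxic cells, 7 had enough counts and 7 were lower in the ceAF group, 1 of them at an unadjusted p-value under 0.05, and the median log2 fold change was −0.55. They summed to 50.5, 133.1, 135.4, 125.3 and 44.7 CPM in the DSS mice and to 72.3, 94.8, 50.1, 28.6 and 37.0 CPM in the ceAF mice. Without DSS-1, or without DSS-5, 3 of the 7 were under that limit. DSS-1 and DSS-5 were low among the DSS mice, and r with Cxcr3 was 0.96 (rho 0.98), higher than the 0.90 between Cxcr3 and the T cell markers. The most abundant was Gzma (mean FPKM 25.4, log2 fold change −0.49), and the smallest p-values were those of Nkg7 (−1.68), Prf1 (−1.10), Gzmb (−1.01) and Klrd1 (−0.55). The NK cell markers Ncr1 and Klre1 were too low to be tested, with means of 0.161 and 0.548 CPM with DSS alone and 0.350 and 0.480 CPM with ceAF, so Ncr1 was higher with ceAF, unlike the 7 tested genes, and none of the 9 was at 0 over all mice. The part of these cells in the results was not tested.

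Macrophages and monocytes are a main source of CXCL9 and CXCL10. Of 10 markers 10 were lower in the ceAF group, 4 at an unadjusted p-value under 0.05, and the median log2 fold change was −0.54. They summed to 274.0, 182.2, 196.4, 189.0 and 115.9 CPM in the DSS mice and to 59.4, 155.6, 184.1, 111.6 and 131.8 CPM in the ceAF mice. DSS-1 was highest and ceAF-1 lowest, so the order of mice was not that of the chemokines, and without DSS-1 or without ceAF-1 the median was −0.33 and 0 of the 10 were under that limit. The most abundant was C1qa (mean FPKM 27.6), none was at 0 over all mice, and the smallest p-values were those of Adgre1, Ccr2, Itgam and C1qa, with log2 fold changes of −0.58, −0.76, −1.30 and −0.62.

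Relative to the mean of these markers, the log2 level of Cxcl9 was 0.57, 1.99, 1.81, 2.24 and 0.82 in the DSS mice and 2.46, 2.39, 1.95, 0.58 and 0.39 in the ceAF mice. That of Cxcl10 was 1.11, 1.06, 1.04, 1.84 and 0.24 in the DSS mice and 1.84, 1.53, 2.16, −0.87 and −1.04 in the ceAF mice. ceAF-4 and ceAF-5 were low and ceAF-1 was among the highest in both. The difference between the groups was 0.07 for Cxcl9 (exact two-sided permutation test, p = 0.849) and −0.33 for Cxcl10 (p = 0.627 in the same exact test), with overlap in each. The sign of the difference depended on single mice, since it was −0.16 for Cxcl9 without DSS-1 and without ceAF-1 and 0.11 for Cxcl10 without ceAF-5.

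Markers of other cells were counted in the same way. All tested markers of dendritic cells (7 of 8 tested), B cells (6), endothelium (6), fibroblasts (6) and smooth muscle (5) were lower in the ceAF group, with median log2 fold changes of −0.37, −0.60, −0.30, −0.29 and −0.26 and 0 under an unadjusted p-value of 0.05. Without DSS-1 the median was 0.65 for the B cell list, where 6 of 6 were then higher, 0.11 for the fibroblast list and −0.15 for the endothelial list. Without ceAF-1, the lowest mouse in all 6 endothelial and all 6 fibroblast markers, the median was −0.09 for endothelium (4 of 6 lower), −0.06 for fibroblasts (3 of 6) and −0.09 for smooth muscle (3 of 5). In the other direction it was −0.64 for endothelium without ceAF-4, −1.14 for B cells without ceAF-5 and −0.46 for smooth muscle without ceAF-2. For smooth muscle it was −0.04 without DSS-5, and for dendritic cells it ran from −0.85 without ceAF-5 to −0.23 without DSS-1. With voom the median was 0.23 for B cells, 0.09 for fibroblasts and 0.09 for smooth muscle, so the direction of these 3 lists was not stable. Without DSS-5, 2 dendritic cell markers and 1 fibroblast marker were under the limit. Of 6 neutrophil markers 6 were lower, 5 at that limit, with a median of −3.96. Their sum was 1747.8 CPM in DSS-1 and 123.3 to 549.3 in the other DSS mice, against 21.1 to 249.1 in the ceAF mice, and without DSS-1 the median was −1.52 and 1 of the 6 was under the limit. With voom the median was −1.44. The most abundant of the 6 was Ly6g (mean FPKM 197.8), which was not under the limit with all mice. Ly6g made up 482.0 of the 549.3 CPM in DSS-5 and 237.0 of the 249.1 CPM in ceAF-2, but 228.7 of 1747.8 in DSS-1. The sum in DSS-5 and ceAF-2 is thus mainly that of 1 gene. Of 9 markers of colon epithelium 4 were lower and 5 higher, with a median of 0.07. This median was −0.032 without DSS-5, −0.068 without DSS-1 and DSS-5, and 0.165 without DSS-4 or without ceAF-4, so its direction was not stable either. Cxcl9 correlated with the epithelial markers at r 0.79 (rho 0.82) and with the neutrophil markers at 0.01 (rho −0.10), which describes the 10 mice and was not tested.

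Because Cxcl9 and Cxcl10 moved together over the mice, the 250 bases before the start of each gene are shown, with those of Ifng, from RefSeq (GRCm38.p6). Of the 7 genes 6 have a promoter in that source, and Cxcl11 has none there. Capitals mark matches, on either strand, to the gamma-activated site GAS (TTC, any 3 bases, GAA), to the interferon-stimulated response element ISRE (GAAA, any 2 bases, GAAA) or to the NF-kB site. These regions follow GRCm38.p6 and do not match the positions from the deposited table printed above. They are chr10:118440796-118441045 on the forward strand for Ifng, and chr5:92328080-92328329 and chr5:92348890-92349139 on the reverse strand for Cxcl9 and Cxcl10.
Ifng: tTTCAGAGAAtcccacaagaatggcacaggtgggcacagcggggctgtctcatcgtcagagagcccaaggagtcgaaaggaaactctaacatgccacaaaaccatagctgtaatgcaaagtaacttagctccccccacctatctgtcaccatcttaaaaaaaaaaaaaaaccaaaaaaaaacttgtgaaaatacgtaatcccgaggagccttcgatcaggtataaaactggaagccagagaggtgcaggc
Cxcl9: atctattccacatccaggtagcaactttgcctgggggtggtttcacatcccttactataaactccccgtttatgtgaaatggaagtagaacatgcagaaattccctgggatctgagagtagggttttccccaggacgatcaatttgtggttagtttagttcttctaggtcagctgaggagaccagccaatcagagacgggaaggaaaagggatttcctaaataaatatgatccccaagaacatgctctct
Cxcl10: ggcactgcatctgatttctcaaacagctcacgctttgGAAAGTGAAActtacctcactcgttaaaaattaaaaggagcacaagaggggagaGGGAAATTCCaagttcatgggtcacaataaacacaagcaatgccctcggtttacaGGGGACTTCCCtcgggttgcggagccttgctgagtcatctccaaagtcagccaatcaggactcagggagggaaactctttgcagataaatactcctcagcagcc
Cxcl10 held 1 match to ISRE, which ended 203 bases before the start, and 3 matches to the NF-kB site, which ended 149, 94 and 93 bases before it, the last 2 overlapping. Ifng held 1 match to GAS, 240 bases before the start, and Cxcl9 held none of the 3 motifs in this form. Of the others, Ifngr2 held 1 match to the NF-kB site, and Ifngr1 and Cxcr3 held none. Among all 32851 promoters listed there, 7.02% held GAS, 2.98% ISRE and 7.25% the NF-kB site in the same 250 bases. A match describes letters and not binding, and letters that were not found in this window say nothing about a factor.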

How the data were processed

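The authors deposited, for each gene and mouse, a raw read count without normalization and an FPKM value. The deposited FPKM equals the count scaled by exonic length and library total. The submitters' processing notes name cutadapt 1.9.1 and HISAT2 2.2.1; the counting program and build are not given in the sources used here, and positions are printed as deposited. Libraries were poly(A) selected. Groups and mouse numbers came from the sample labels, doses, times and ages from the study's methods. Inside groups no library was a copy of another, with chi-square per gene from 13.25 to 132.6 over 20 pairs.

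Genes were filtered with edgeR's filterByExpr (minimum count 10), scaled by TMM and tested by quasi-likelihood, with p-values adjusted (Benjamini-Hochberg) over the 16545 genes kept (edgeR 4.0.16, R 4.3.3). CPM values use TMM, and log2 CPM adds a prior count of 1. Mice were permuted exactly for differences of mean log2 CPM. Alternatives used DESeq2 1.42.0 and limma 3.58.1, other filters and scalings, and mice left out. The test was tried on simulated data.

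By rule, genes named were the 7 members, the 4 smallest p-values and the most abundant gene of each list, and the 5 genes most like Ifng, Cxcl9, Cxcl10 and Cxcr3. Genes too low to test are named in the drivers and NK lists, the higher genes in the signal chain list, and overlapping genes for position. The class II genes are said to be chosen after their values were seen, and genes of the remaining marker lists that meet the rule are not printed, apart from the most abundant neutrophil gene. Members and lists were chosen with earlier results of these data known. A gene of the signal chain list is not reported here and was left out of that list.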

Additional observations from a re-analysis of the deposited data

Results flagged for a closer look

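For log2 CPM of each of the 7 genes and the mean log2 CPM of each list, Dixon's ratio was computed per group, which is the distance from the farthest mouse to the next over the whole span. Of 42 ratios 6 were above the critical value of 0.71 for 5 mice, where chance gives about 1 in 20, or 2.1. For Ifngr1, DSS-5 was above the other DSS mice (0.848, 510.7 CPM against 375.0 to 393.0). For Cxcl11 it was below them (0.761, 1.38 CPM against 3.35 to 4.40), as in the mean of the drivers of Ifng production (0.758) and of the T cell markers (0.896). DSS-1 stood above the others in the mean of the B cell markers (0.848) and of the fibroblast markers (0.832). All 6 were in the DSS group. On linear values, which for a list are its summed CPM, 4 of these 6 were still above it. Cxcl11 (0.651) was not, nor were the drivers of Ifng production (0.511), where DSS-5 was the highest DSS mouse by summed CPM (245.5 against 153.0 to 198.3), and the neutrophil markers, where DSS-1 was highest, were above it on the linear scale alone (0.738). The cause was not tested.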

How the results depend on the processing

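With 5 mice per group, few reads of Ifng, Cxcr3 and Cxcl11 and no untreated group limit precision, and cell numbers were not measured. None of the 7 genes passed an adjusted p-value of 0.05 under any alternative; for Ifng it was lowest with DESeq2 (0.132).

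Genes called numbered 30 with DESeq2 and 0 to 3 with a mouse left out (3 without DSS-5). Lower genes at an unadjusted p-value under 0.05 numbered 1246 with voom, 976 without a filter and 321 (without DSS-1) to 997 (without ceAF-1) with a mouse left out. Higher ones numbered 1206 with voom, 308 and 291 on log2 FPKM plus 1 and plus 0.1, and 391 to 875 with a mouse left out.

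The log2 fold change of Ifngr1 was 0.179 with voom (unadjusted p = 0.0816), −0.006 on FPKM with either offset, and −0.034 to 0.123 with a mouse left out. That of Ifngr2 was −0.098 with voom, −0.025 and −0.026 on FPKM, −0.018 without DSS-1 and DSS-5, and −0.118 to 0.171 with a mouse left out. That of Cxcl11 was −0.801 to 0.002. On FPKM plus 1, Ifng was −1.023 and Cxcr3 −0.579. The difference of mean log2 CPM with a mouse left out was −0.045 to 0.099 for Ifngr1, −0.14 to 0.151 for Ifngr2 and −1.177 to −0.662 for Cxcr3, which was −1.356 without DSS-1 and DSS-5. Ifngr2 differed by 6.985 CPM on the linear scale.

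Relative to markers, with a mouse left out, Ifng was −0.938 to −0.411, Cxcr3 0.216 to 0.496, Cxcl9 −0.163 to 0.356 (−0.461 without DSS-1 and DSS-5) and Cxcl10 −0.692 to 0.107.

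With the mouse number as a replicate block, 0 genes were called, 341 were lower and 353 higher at an unadjusted p-value under 0.05, and the log2 fold change was −1.961 for Ifng, −0.002 for Ifngr2, −0.51 for Cxcl9, −0.892 for Cxcl10 and −0.653 for Cxcl11. The numbers did not pair mice: correlations between mice of the same number were −0.249 to 0.286, and 1 of 5 was closest to its own number.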
